A study of Mus musculus with 2 samples.

Results

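The heart of a calorically restricted (CR) mouse lacking Sirt1 in its cardiomyocytes was compared with the heart of a restricted control mouse. Both hearts carried the green dye Cy3, but on 2 different slides. Genes were chosen where the probe stood above the blank spots in both hearts, which left 11958 of 16387 named genes on the arrays (73.0%). The mice were male C57BL/6J, labelled 6 months old, and had been fed ad libitum (AL) or restricted by 40% for 3 months. Groups were thus control AL, control CR, knockout AL and knockout CR, with 1 heart each. Each slide held the CR heart of its genotype beside the AL heart of the same genotype, which carried Cy5. Which driver made the deletion, and which alleles the control mice carried, is not stated in the labels. The deletion was in cardiomyocytes and the sample was the heart, so the other cell types of the knockout hearts kept the gene.

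Sirt1 is a protein deacetylase that uses NAD and acts on histones, transcription factors and metabolic regulators such as PGC-1 and FOXO proteins. Caloric restriction raises its activity in several tissues and lowers insulin and growth factor signalling. In the rodent heart, the adult ventricle relies on the fast myosin heavy chain Myh6, and a fetal set of genes, among them Myh7, Acta1, Nppa and Nppb, is known to return under load or stress. The title of the series names the question: what part cardiomyocyte Sirt1 has in the protection of the heart by restriction.

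A log2 signal here is the normalized brightness of a probe with 50 scanner units added, so values near 6 lie close to the blank spots. The added units make differences of dim genes smaller than the ratio of their signals. With 1 heart a side there was no test, and no value can be set against the spread between mice. Genotype and slide cannot be told apart. The AL pair came from other mice but from the same 2 slides, so its values are given beside the CR values and are not a separate check of the slide. In the control and knockout CR hearts, 77.8% and 74.0% of probes were detected, with median signals of 41.9 and 40.5 units above the blanks, and the number of arrays limits the precision. In the Cy3 channel the 2 kinds of positive control spots were on average lower on the knockout slide by a log2 value of -0.55 (SD 0.159 over 24 spots) and -0.62 (SD 0.156 over 24 spots) before normalization. Compared genes had a median of -0.21 on blank-subtracted signals, and normalization brought it to 0.00. Markers of the heart muscle were bright: Myl2, the ventricular regulatory light chain, had log2 signals of 15.41 and 15.38, and Myh6 of 13.74 and 14.23.

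Sirt1 itself was at 7.53 in the control and 7.51 in the knockout CR heart, a difference of -0.02 that became 0.36 when the brightness around each spot (the local background) was subtracted. Where this probe lies relative to the deletion is not known here, and other heart cells carry the gene, so these values do not check the genotype.

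Most genes differed little between the hearts. Of the 11958 genes, 73.1% lay between -0.20 and 0.20, the SD over genes was 0.234 and 51.0% were above 0. At least 2-fold higher in the knockout heart were 24 genes (0.201%), and at least 2-fold lower were 12 (0.1%). At 1.5-fold there were 172 higher (1.44%) and 129 lower (1.08%). This balance turned with the scaling of the channels: at 1.5-fold it was 102 higher and 280 lower with median scaling after loess, and 91 and 308 with median scaling of the Cy3 channels alone. At 2-fold these scalings gave 16 higher and 21 lower, and 15 and 23. Among probes with no gene name, 4185 were compared, and 11 were higher and 9 lower by 2-fold. With the genes split by signal into 4 sets of like size, 0 of 2990 in the dimmest set and 123 of 2990 in the brightest passed 1.5-fold upward, but the 50 added units limit what a dim gene can reach, and with no units added 708 genes rather than 172 passed it. Of the 24 genes higher by 2-fold, 10 had under 100 units above the blank in the control heart. The shares over all genes given here are the background for the list counts below.

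**Figure D1:**
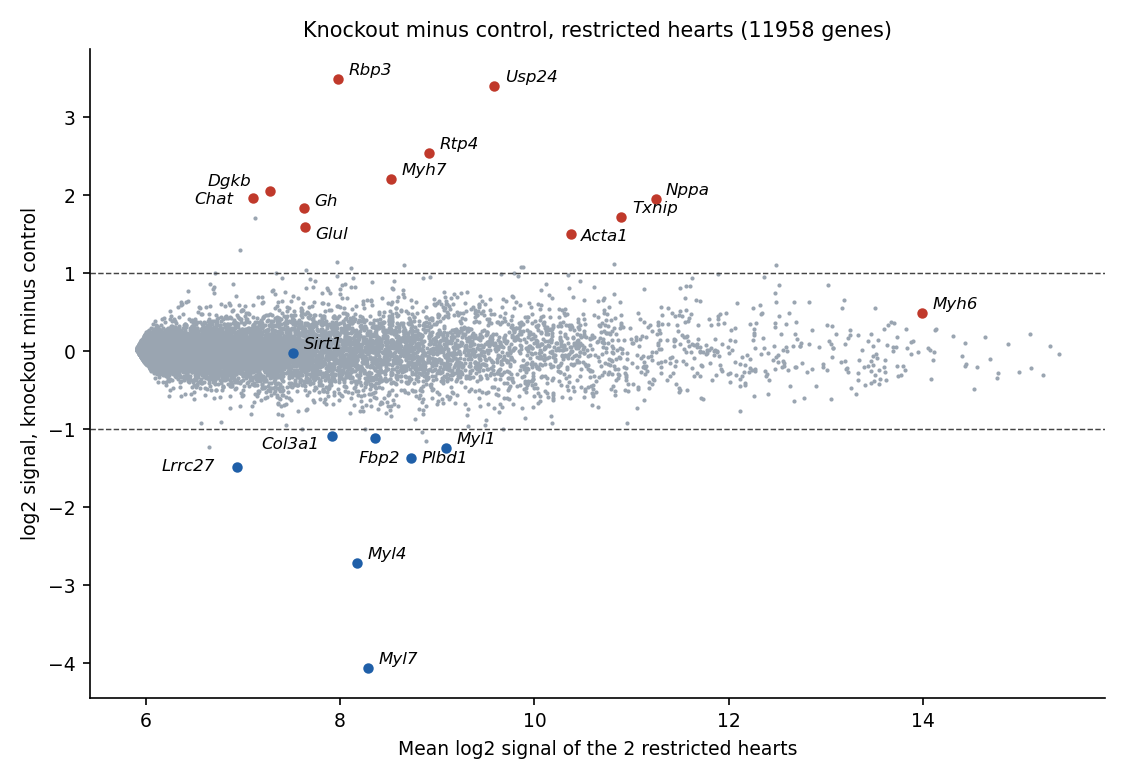
Each point is 1 of 11958 genes, with the mean log2 signal of the control and knockout CR hearts on the x axis and the knockout minus control difference on the y axis; dashed lines mark 2-fold. Myl7 at -4.06 and Myl4 at -2.71 lie far below the band, Rbp3 at 3.49 and Usp24 at 3.40 far above it, and Sirt1 at -0.02 within it.

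The counts of genes past 2-fold and 1.5-fold moved most with the subtraction of the local background, while the share above 0 was 51.0% with it and 47.3% and 45.3% with the median scalings. Around spots of 100 to 200 units the surrounding brightness was 81.6% of the spot on the control slide and 83.0% on the knockout slide, and around spots of over 5000 units 54.3% and 55.4%. For 14.9% of compared genes the surroundings were brighter than the spot on at least 1 slide. After subtraction, 650 genes were higher (5.44%) and 558 lower (4.67%) by 2-fold, and 1332 (11.1%) and 1241 (10.4%) by 1.5-fold. Of the 24 higher genes 22 kept their sign and 16 were still past 2-fold, and of the 12 lower genes 12 kept their sign and 8 were past 2-fold. Values with the local background subtracted are therefore given beside the genes below as a second reading.

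The highest differences belonged to genes of unlike function. Rbp3, a retinoid carrier of the retina, had 23.3 units above the blank in the control and 788 in the knockout heart, or log2 signals of 6.23 and 9.73. Its difference was 3.49 (1.91 with the local background subtracted), and the AL hearts stood at 6.24 and 9.57. Usp24, a deubiquitinase, went from 208 to 2363 units, a difference of 3.40 (3.38). Rtp4, a chaperone of receptor transport that interferon induces, went from 167 to 1089 units, a difference of 2.54 (2.56). The control CR heart was thus near the blank for Rbp3 and well above it for Usp24 and Rtp4. Of 30 compared interferon-response genes, Rtp4 was the sole member past 1.5-fold: 15 were higher, the median was -0.02, and the next highest, Irf3, was at 0.39.

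Several other genes among the 15 highest also started near the blank. In the control CR heart Chat, the enzyme that makes acetylcholine, had 16.7 units, Dgkb, a diacylglycerol kinase, 24.3, Olfr298, an olfactory receptor, 25.2, and Sirpa, an inhibitory receptor of myeloid cells and neurons, 28.6. In the knockout CR heart they had 217, 261, 197 and 142 units, and their differences were 1.965, 2.06, 1.70 and 1.299. Gh, the pituitary growth hormone, was at 56.7 and 317 units with a difference of 1.84 (1.33 with the local background subtracted). Their readings with the local background subtracted were 0.90 for Chat, 1.73 for Dgkb, 1.35 for Olfr298 and 0.91 for Sirpa. Glul, glutamine synthetase, differed by 1.60 but by -0.11 in that reading, and the surroundings of its knockout spot were 95.5% as bright as the spot. All of these genes except Glul kept a higher value in the knockout heart in both readings. Brighter genes at the top were Txnip, an inhibitor of thioredoxin and of glucose uptake, at 10.03 and 11.76 (difference 1.72, 1.26 in the second reading), Tuba8, an alpha tubulin, at 10.26 and 11.38 (1.12, 1.61), and Agk, a mitochondrial lipid kinase, at 7.40 and 8.54 (1.14, 1.37).

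At the lower end below Myl7 and Myl4 stood Lrrc27, a leucine-rich repeat protein, with 172 units in the control and 17.7 in the knockout CR heart, a difference of -1.48 (-1.42 with the local background subtracted). Plbd1, a phospholipase-like lysosomal protein, was at 9.42 and 8.05, a difference of -1.37 (-1.16). Cmss1 differed by -1.16 (-0.74), Il15, a cytokine of muscle and immune cells, by -1.03 (-1.02), Gadd45gip1, a protein of the mitochondrial ribosome, by -1.001 (-1.27) and Tbca, a tubulin chaperone, by -0.996 (-1.23). Fbp2, the muscle fructose bisphosphatase, was at 8.92 and 7.80, a difference of -1.12 (-0.84). In these genes the knockout CR heart was lower in both readings. Anp32a, a nuclear phosphoprotein, was at -0.94 and reached -2.78 in the second reading. The surroundings of its knockout spot were 93.8% as bright as the spot.

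Genes past a threshold in the CR pair mostly lay on the same side in the AL pair. Of the 24 genes higher by 2-fold, 24 were above 0 in the AL pair and 17 passed 2-fold there, with a median of 1.34. Of the 12 lower genes, 9 were below 0 and 5 passed, with a median of -0.75. The 3 exceptions among the lower genes were Col3a1, a fibrillar collagen, at -1.09 under CR and 0.35 under AL (-1.85 and -0.92 with the local background subtracted), Atf5, a transcription factor of stress responses, at -1.002 and 0.03, and Mthfd2, an enzyme of mitochondrial folate metabolism, at -1.22 and 0.11. Mthfd2 lay below the median signal, was named after its value was seen, and was at -0.28 with the local background subtracted. At 1.5-fold, 164 of 172 higher genes and 119 of 129 lower genes had the same sign in the AL pair. Of all genes compared in the AL pair, 52.7% were above 0. The share of all genes with the same sign in both pairs is not given here. The AL pair itself, over 12775 compared genes, had 57 higher (0.446%) and 15 lower (0.117%) by 2-fold, and 330 higher (2.58%) and 227 lower (1.78%) by 1.5-fold. Because the slides were shared, slide and genotype cannot be told apart in this likeness either.

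**Figure D2:**
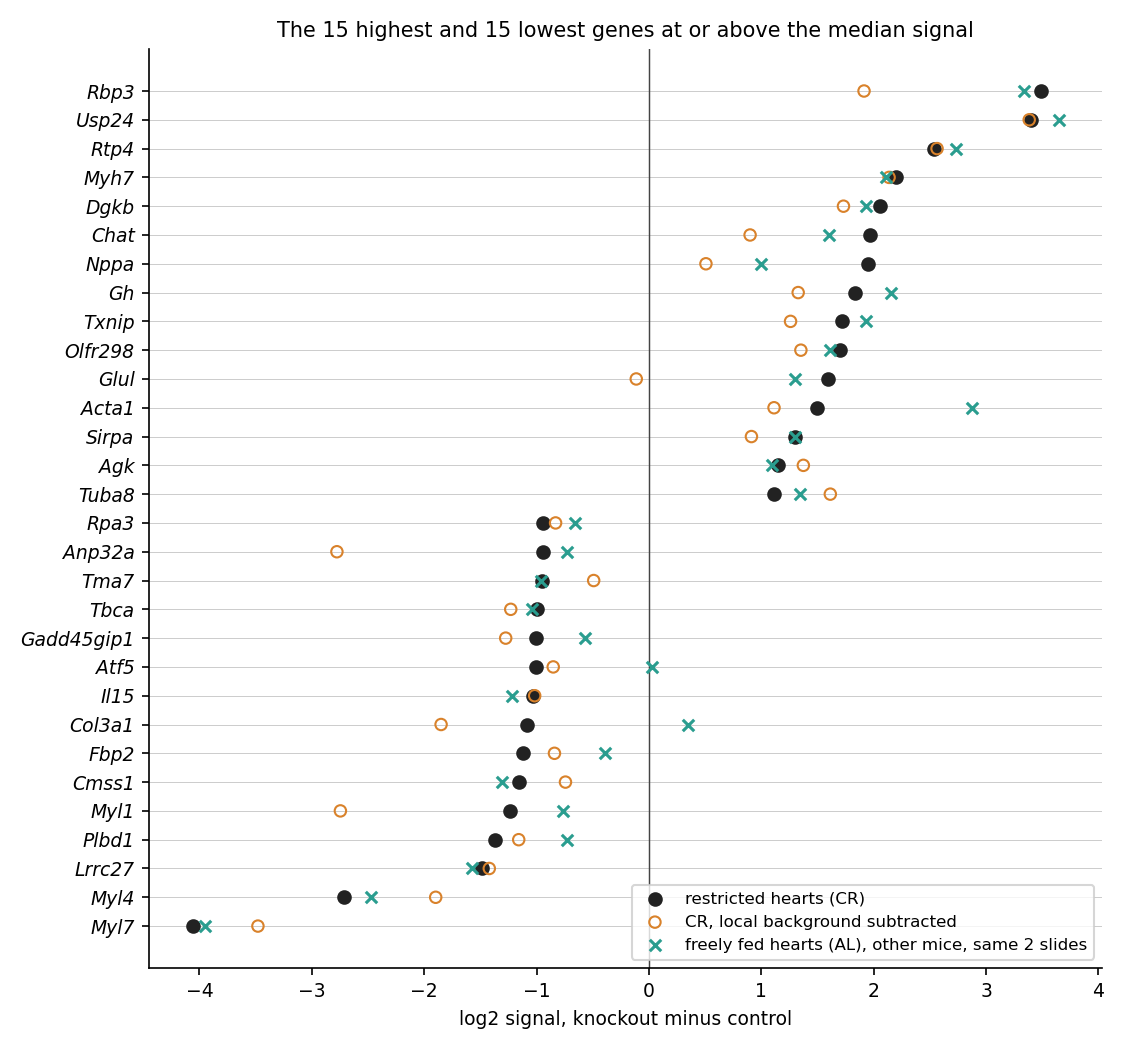
The 15 highest and 15 lowest genes at or above the median signal are plotted by their knockout minus control log2 difference: filled points for the CR hearts, open circles for the same hearts with the local background subtracted, crosses for the AL hearts. Usp24 and Rtp4 hardly moved between readings, Glul moved from 1.60 to -0.11, and Col3a1 and Atf5 are the low genes whose crosses lie above 0.

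The thick filament had the widest range of the 56 gene lists examined. It is the myosin of the sarcomere with its light chains and binding proteins. Of 10 compared members 5 were higher and 5 lower, and 2 passed 1.5-fold upward and 3 downward, with a median of 0.01 (-0.09 with median scaling) against 0.00 over all genes. Myl7, the atrial regulatory light chain, had 1439 units above the blank in the control and 21.0 in the knockout CR heart, or log2 signals of 10.32 and 6.26. Its difference was -4.06, -3.48 with the local background subtracted and -5.86 when the blank mean alone was subtracted. The AL hearts stood at 10.26 and 6.31, so both knockout hearts were near the blank and both control hearts were not. Myl4, the atrial essential light chain, was at 9.53 and 6.81, a difference of -2.71 (-1.90), and Myl1, a fast skeletal light chain, at 9.71 and 8.47, a difference of -1.24 (-2.75). In a sample of whole tissue, fewer cells of a type and less RNA per cell cannot be told apart. The ventricular light chains did not share this pattern: Myl2 differed by -0.03 (-0.27) and Myl3 by -0.34 (0.59). Among the heavy chains, Myh7, the slow and fetal form, was at 7.43 and 9.63, a difference of 2.20 (2.14), and was higher in the knockout heart of both diets (6.54 and 8.65 under AL). Myh6 differed by 0.49 (0.84), against 1.51 under AL. Mybpc3, the cardiac myosin-binding protein C, was at 12.17 and 12.80, a difference of 0.63 that turned to -0.63 with the local background subtracted.

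**Figure D3:**
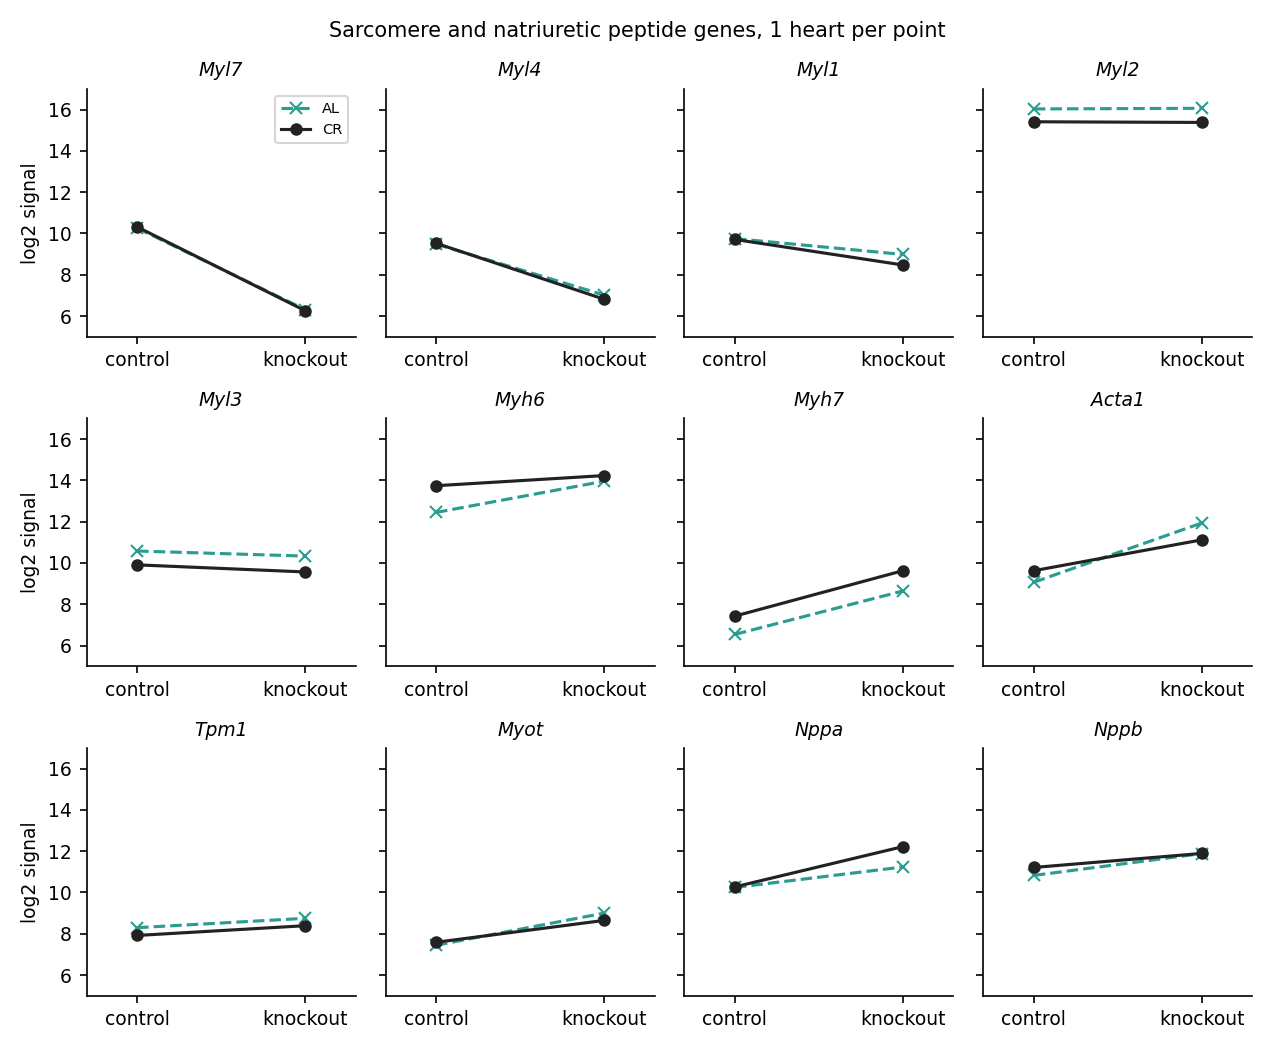
Each panel shows the log2 signal of 1 gene in the 4 hearts, control on the left and knockout on the right, with CR hearts as joined filled points and AL hearts as joined crosses. Myl7 drops from 10.32 to 6.26 in the CR hearts while Myl2 stays at 15.41 and 15.38, and Myh7 climbs from 7.43 to 9.63.

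In the thin filament, the actin strand with its troponins and tropomyosins, 11 of 14 compared members were higher, with a median of 0.22 (0.32 with the local background subtracted). Acta1, the skeletal alpha actin that the fetal heart also uses, was at 9.63 and 11.12, a difference of 1.496 (1.11), and was the sole member past 1.5-fold. Its AL difference of 2.87 was larger. Tpm1, the main cardiac tropomyosin, differed by 0.47 and Tmod1, which caps the filament ends, by 0.46. The cardiac troponins gave -0.28 for Tnnc1, -0.27 for Tnni3 and 0.06 for Tnnt2.

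Z-disc and M-band genes, whose proteins anchor the filaments, were higher in 20 of 23 members, against 51.0% of all genes above 0. Their median was 0.37 in the CR pair and 0.44 in the AL pair, and 5 members passed 1.5-fold upward and 0 downward. Myot, a Z-disc protein that crosslinks actin, was at 7.59 and 8.65, a difference of 1.06 (1.16 with the local background subtracted). Myom2, which ties myosin at the M-band, was at 11.39 and 12.38, a difference of 0.99 (1.21). Nexn, an actin-binding Z-disc protein, differed by 0.80 (4.96), Nrap, a protein of myofibril assembly, by 0.70 (0.64) and Ldb3 by 0.65 (1.20). The Nexn surroundings were 108.1% of its spot on the control slide. The list's median was 0.19 with median scaling of the separate channels, a choice that lowered bright genes as a whole: the 200 brightest genes had a median of -0.31 under it and of -0.03 in the values used here.

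The 250 bases before the start of transcription are shown for Myl7 and Acta1, contractile genes from opposite ends of the comparison, and for Myl4 and Nppa beside them, 5′ to 3′ from RefSeq on GRCm38.p6. Capitals mark a CArG box, the site read by serum response factor in muscle genes, or the letters TATAAA.
Myl7, chr11:5898783-5899032, minus strand: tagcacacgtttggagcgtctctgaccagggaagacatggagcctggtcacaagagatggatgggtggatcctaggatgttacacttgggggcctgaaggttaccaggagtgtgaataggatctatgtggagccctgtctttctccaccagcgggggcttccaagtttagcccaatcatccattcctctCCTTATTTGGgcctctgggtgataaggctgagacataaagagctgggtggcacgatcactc
Acta1, chr8:123894776-123895025, minus strand: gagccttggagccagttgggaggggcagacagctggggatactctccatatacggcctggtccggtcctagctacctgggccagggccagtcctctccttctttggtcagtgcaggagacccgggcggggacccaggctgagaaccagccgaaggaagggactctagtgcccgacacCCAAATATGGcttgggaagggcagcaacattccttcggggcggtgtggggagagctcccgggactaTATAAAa
Myl4, chr11:104550413-104550662, plus strand: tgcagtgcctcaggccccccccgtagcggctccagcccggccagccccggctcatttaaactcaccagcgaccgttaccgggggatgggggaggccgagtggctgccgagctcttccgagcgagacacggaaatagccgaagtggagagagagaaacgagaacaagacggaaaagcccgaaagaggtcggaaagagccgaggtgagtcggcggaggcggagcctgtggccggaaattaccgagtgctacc
Nppa, chr4:148000472-148000721, plus strand: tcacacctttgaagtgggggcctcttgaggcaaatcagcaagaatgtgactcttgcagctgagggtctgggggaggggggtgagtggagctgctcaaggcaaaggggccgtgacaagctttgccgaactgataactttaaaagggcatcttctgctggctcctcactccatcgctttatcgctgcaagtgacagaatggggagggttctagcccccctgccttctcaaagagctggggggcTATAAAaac
Myl7, the lowest gene, and Acta1, the highest of the thin filament, each held 1 CArG box, 52 and 64 bases before the start, and none was found in the Myl4 and Nppa windows. The windows of Myh7, Txnip, Usp24 and Rbp3, not shown, were also searched and held no CArG box. Both strands were searched, the CArG box reads as itself on the other strand and was counted once, and it was found in 1.47% of 32851 promoter windows, against 12.4% for TATAAA. A match is a description of these letters and not a site shown to be used.

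The atrial light chains belong to a list of atrial myocyte markers that did not move as 1 block. Of 16 compared members 7 were higher and 9 lower, with a median of -0.07. Beside Myl7 and Myl4, the genes higher by 1.5-fold were Nppa, Adm and Clu, at 1.95, 0.94 and 0.84, and 11 members lay within 1.5-fold. Without Myl7 and Myl4 the median of the other 14 was 0.03. Sln, the atrial regulator of the calcium pump, was detected in the control CR heart alone, with 16.4 and 5.2 units above the blank, and Gja5, an atrial connexin, in neither. Summed signals, here and below, are over all members of a list on the array, in units above the blank before normalization. They are not corrected for the dimmer knockout slide. For the 19 atrial members they were 10080 in the control and 13417 in the knockout heart. Clu held 5065 and 7513 of these units and Nppa 1384 and 4577, while Myl7 held 1439 and 21.0 and Myl4 794 and 56.7. Ventricular myocyte markers were higher in 11 of 17 (median 0.19, -0.02 with median scaling), and their summed signals were 112131 and 115738 units. The part of the amount of atrial tissue in the light chain values was not tested.

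Hypertrophy and fetal genes were higher in 16 of 17 members, with 4 past 1.5-fold upward and 0 downward. Over all compared genes 51.0% were above 0, and 1.44% and 1.08% passed 1.5-fold upward and downward. The list's median was 0.16 in the CR pair and in the AL pair, but -0.10 in the CR pair with the local background subtracted. Nppa, atrial natriuretic peptide, had 1384 and 4577 units above the blank, or log2 signals of 10.27 and 12.22. Its difference was 1.95 (0.51 with the local background subtracted), against 0.99 under AL, where the hearts stood at 10.24 and 11.24. Nppb, B-type natriuretic peptide, was at 11.21 and 11.89, a difference of 0.68 that turned to -1.24 in the second reading. The surroundings of its knockout spot were 89.8% as bright as the spot. Ankrd1, a stress-responsive protein of the Z-disc and nucleus, was at 13.77 and 14.25, a difference of 0.48 (-0.22). The knockout value was thus higher in both readings for Myh7, Acta1 and Nppa, and in 1 of them for Nppb and Ankrd1.

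**Figure D4:**
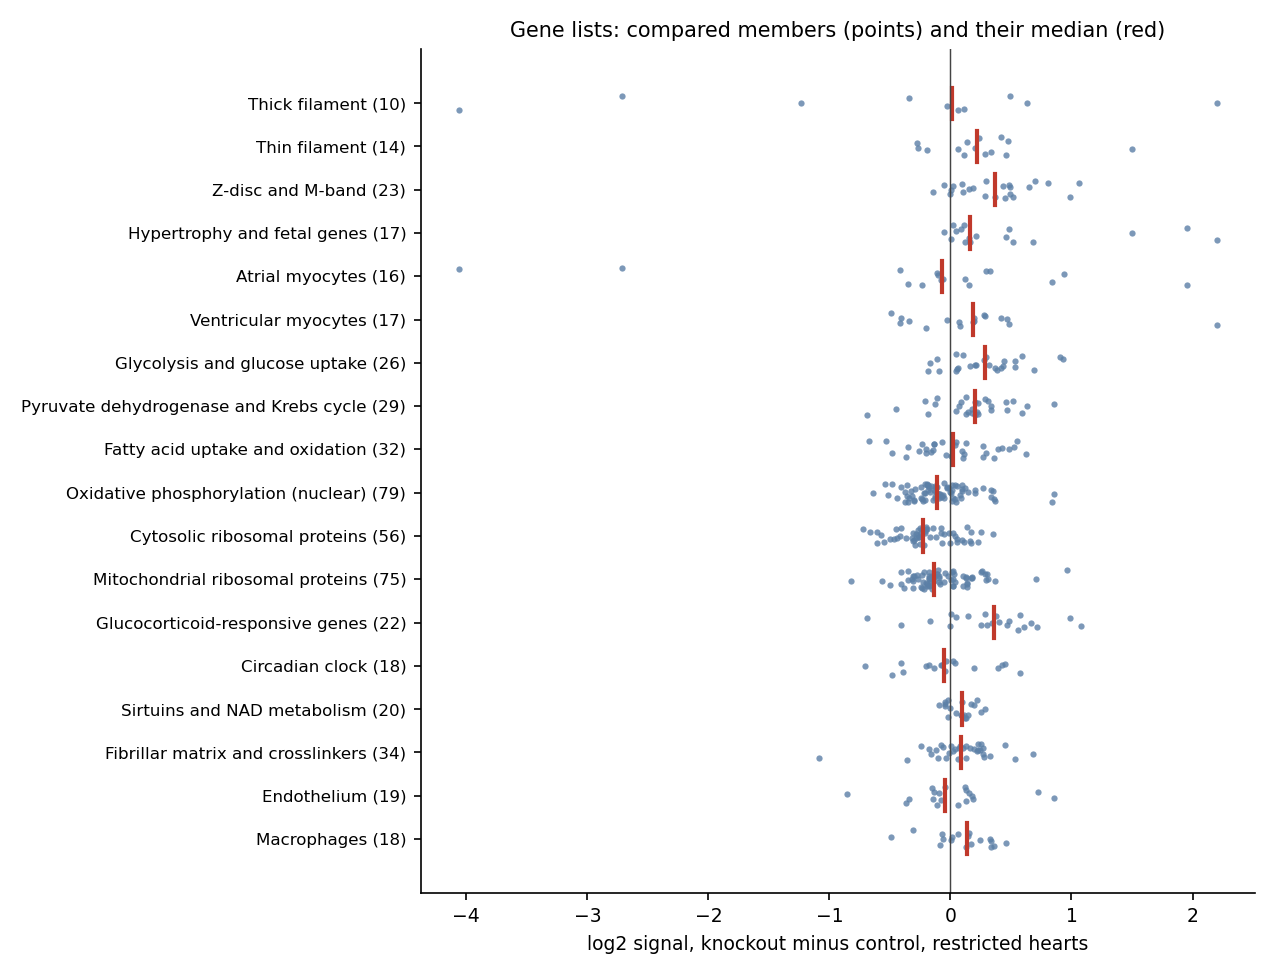
Points are the compared members of 18 gene lists by their knockout minus control log2 difference in the CR hearts, with the number of members in brackets, and red bars are medians. The thick filament and atrial lists are widest, glucocorticoid-responsive and Z-disc genes have medians of 0.36 and 0.37, and cytosolic ribosomal proteins have a median of -0.23.

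Genes of glucose use were mostly higher in the knockout CR heart. Of 26 genes of glycolysis and glucose uptake 22 were higher, 4 of them by 1.5-fold and 0 lower by as much, with a median of 0.28 (0.42 with the local background subtracted, 0.51 in the AL pair). Over all compared genes 51.0% were higher, 1.44% were higher by 1.5-fold and 1.08% lower by as much. The list's median was 0.15 with median scaling after loess and 0.14 with median scaling of the Cy3 channels alone. Pfkm, the muscle phosphofructokinase, was at 11.16 and 12.09, a difference of 0.93 (1.47). Pkm, pyruvate kinase, was at 10.02 and 10.92, a difference of 0.90 that turned to -0.22. Hexokinases gave 0.69 (1.57) for Hk2 and 0.59 (0.66) for Hk1, and Slc2a4, the insulin-responsive glucose carrier, 0.53 (0.53). Some other enzymes lay near or below 0, with Gapdh at 0.06 (-0.02), Pgk1 at -0.17 (-1.125) and Eno3, the muscle enolase, at -0.11 (2.65). Others were higher, among them Pgam1 at 0.54 (2.77), Eno1 at 0.44 (1.97) and Gpi1 at 0.42 (-0.81). Aldoa had probes at 0.05 and -0.24. Glycogen genes were higher in 11 of 13 with 0 past 1.5-fold, and their median of 0.16 was -0.05 with the local background subtracted.

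In pyruvate oxidation and the Krebs cycle 23 of 29 genes were higher, against 51.0% of all compared genes. By 1.5-fold 3 were higher and 1 was lower, against 1.44% and 1.08% of all genes. The list's median of 0.20 did not hold up across settings: it was -0.34 with the local background subtracted and 0.01 with median scaling. Sdha, the flavoprotein of succinate dehydrogenase, was at 12.59 and 13.44, a difference of 0.85 (1.29), Idh3g, a subunit of isocitrate dehydrogenase, differed by 0.63 (0.61) and Pdha1, of pyruvate dehydrogenase, by 0.59 (2.33). Pdk4, the kinase that shuts pyruvate dehydrogenase in fasting, was lower, at 8.48 and 7.79, a difference of -0.69 (-1.56), and it differed by -0.73 under AL.

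Fatty acid uptake and oxidation had no common direction, with 17 of 32 genes higher and a median of 0.02 (-0.10 with the local background subtracted, -0.15 with median scaling). Etfdh, which passes electrons from fatty acid oxidation to ubiquinone, was the highest, at 11.77 and 12.40 (difference 0.62, 2.46 in the second reading), and Decr1, an enzyme for unsaturated fatty acids, the lowest, at 9.99 and 9.31 (-0.68, -2.69). Acadvl, the very long chain dehydrogenase, differed by 0.55 (-0.40) and Acsl1, which activates fatty acids, by 0.52 (0.79). Fabp3, the fatty acid carrier of heart muscle, was at 14.66 and 14.46, a difference of -0.20. Cd36 and Acadl, both at 0.27, became 6.04 and -6.78 in the second reading, where the surroundings were 108.5% and 100.9% of the spot on 1 slide.

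Sirtuin and NAD genes lay close to 0, as most genes did. Of 20 compared, 13 were higher, 0 passed 1.5-fold either way and the median was 0.10. Over all compared genes, 51.0% were above 0 and 2.52% passed 1.5-fold either way. The 7 sirtuins ran from -0.04 for Sirt3 to 0.25 for Sirt5, a mitochondrial desuccinylase. Nampt, the rate-limiting enzyme of NAD salvage, was at 10.03 and 10.12, a difference of 0.09, and Nmrk2, a muscle nicotinamide riboside kinase, at 6.85 and 7.14, a difference of 0.28. Regulators linked to PGC-1 were higher in 14 of 22 (median 0.12, 0.03 and 0.01 with the median scalings). Txnip, at 1.72 (1.26 with the local background subtracted), was the sole member of that list past 1.5-fold. Ppargc1b, a PGC-1 family coactivator, was at 0.46 (1.24 with the local background subtracted) and Esrra, the estrogen-related receptor it works with, at -0.45 (-0.92).

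Respiratory chain and ribosome genes leaned the other way. Among nuclear oxidative phosphorylation genes, 53 of 79 were lower, with a median of -0.11 that became -0.34 with median scaling and 0.07 with the local background subtracted. Atp5k, a subunit of ATP synthase, differed by -0.64 (-0.88) and Ndufb4, of complex I, by -0.54 (2.19), whereas Ndufs1, of complex I, was at 0.84 (-0.90). Cytosolic ribosomal proteins were lower in 43 of 56, where 51.0% of all compared genes were higher. Against 1.44% and 1.08% of all genes, 0 of these proteins passed 1.5-fold upward and 4 downward. Their median was -0.23, -0.16 with the local background subtracted, -0.51 with median scaling and -0.32 in the AL pair, so it lay below 0 in each of these settings. Rpl3l, a form found in muscle, was at 11.01 and 10.29 (-0.72, -2.25 in the second reading), Rpl13a at -0.66 (-1.70) and Rpl8 at -0.61 (-1.17). Ribosomal protein genes have many near-identical copies, which a probe may not tell apart. Mitochondrial ribosomal proteins were lower in 48 of 75 (median -0.13), with Mrpl53 at -0.82 (-2.21) and Mrps18a at 0.96 (2.51).

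Of 22 genes that respond to glucocorticoids, 18 were higher, against 51.0% of all compared genes. Past 1.5-fold were 5 upward and 1 downward, Pdk4, against 1.44% and 1.08% of all genes. The list's median of 0.36 became 0.08 with the local background subtracted, and it was 0.10 in the AL pair. Tgm2, a transglutaminase, was at 9.34 and 10.42, a difference of 1.08 (2.43). Mt2, a metallothionein, was at 9.16 and 10.15, a difference of 0.99 (0.33). Arrdc2 differed by 0.71 (0.80) and Cebpb, a transcription factor of the acute phase, by 0.67 (0.96). In the AL pair Tgm2 and Mt2 were also higher, at 0.825 (2.63) and 1.51 (0.60), while Arrdc2 was at -0.02 (0.32) and Cebpb at -0.25 (0.08).

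Clock genes had a median of -0.05, with 7 of 18 higher. Dbp, a clock output factor, was at 10.34 and 9.63, a difference of -0.71 (-0.53). Arntl, a core activator of the clock, was at 6.04 and 6.49, a difference of 0.45 (0.26). It was near the blank, with 13.0 and 34.4 units above it. The repressors Per1 and Nr1d1 were at -0.41 (-0.86) and -0.39 (-0.12), but the repressors Cry1 and Per2 were at 0.42 (-0.03) and 0.04 (0.14). Rora, an activator of Arntl, was at 0.57 (-0.31), but Clock was at -0.14 (0.57). Activators and repressors thus did not split by direction. The labels do not state the hour at which each heart was taken.

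Targets of FOXO factors and genes of muscle atrophy had a median of 0.06, with 13 of 23 higher. Beside Txnip, Sesn1, a sestrin that restrains mTORC1, was at 9.29 and 10.29, a difference of 1.003 (1.53 with the local background subtracted, 0.42 in the AL pair). Depp1 was at 0.62 (1.75) and in the AL pair at -0.47 (0.86), so its opposite signs held in 1 reading. Trim63, a muscle ubiquitin ligase, was at -0.47 (0.10). In the insulin and IGF list 15 of 25 genes were higher (median 0.04). Igfbp3, an IGF carrier, was at 0.60 (-0.23), Irs2, an insulin receptor substrate, at 0.40 (0.79) and Igf2 at -0.44 (-0.97).

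Heat shock chaperones were higher in 20 of 23, with 2 past 1.5-fold upward and 0 downward. Of all compared genes 51.0% were higher, and 1.44% and 1.08% passed 1.5-fold upward and downward. The list's median was 0.23 (0.21 with the local background subtracted, 0.35 in the AL pair, 0.10 and 0.11 with the median scalings). Hsp90aa1, the inducible Hsp90, was at 10.20 and 11.02, a difference of 0.82 (0.21), and Trap1, its mitochondrial relative, at 9.09 and 9.79, a difference of 0.71 (2.12). Hspa8, the constitutive Hsp70, had probes at 0.55 and 0.85. Genes of endoplasmic reticulum stress were higher in 8 of 25 (median -0.05), with Herpud1 alone past 1.5-fold at 0.86 (0.12). NRF2 and antioxidant genes were higher in 13 of 27 (median -0.01, 0.34 with the local background subtracted), with Gsta3, a glutathione transferase, at 0.83 (1.57) and Nqo1, a quinone reductase, at -0.54 (-0.89).

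Among the genes of electrical coupling and calcium, Gja1, connexin 43, was at 12.50 and 11.73, a difference of -0.77 (-1.99) against -0.21 (-1.49) under AL. Rrad, which inhibits the L-type calcium channel, was at 10.02 and 9.42, a difference of -0.60 (-2.30). The surroundings of its CR spot were 101.7% of the spot on the knockout slide. Under AL Rrad differed by 1.53, but by -1.90 with the local background subtracted, so the pairs had opposite signs in 1 reading. The lists of ion channels and connexins (8 of 19 higher, median -0.04) and calcium handling (10 of 23 higher, median -0.02) held no other member past 1.5-fold.

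Markers of the other cells of the heart differed by list. Fibroblast markers were higher in 13 of 16 (median 0.21), with summed signals of 8738 and 9122 units in the control and knockout hearts. Gsn alone held 4716 and 5402 of these units. Fibrillar matrix genes were higher in 23 of 34 (median 0.09). Within them, Col3a1 was at 8.46 and 7.37 (-1.09, -1.85 with the local background subtracted) and Col1a2 at 0.10 (0.38), so these fibrillar collagens did not move together under CR. Col1a1 was at 0.27 (0.24) but near the blank, with 9.8 and 20.2 units above it. In the AL pair Col3a1 was at 0.35 (-0.92), Col1a2 at 0.605 (0.43) and Col1a1 at 0.75 (0.62). Lum, a small proteoglycan, was at 0.68 (1.49) under CR. Endothelial markers were higher in 9 of 19 (median -0.04), and they held both Egfl7 at -0.85 (-1.78) and Robo4 at 0.85 (1.54). Aplnr, the apelin receptor, was at -0.90 (-0.41) and Flt1, a VEGF receptor, at 0.72 (1.60). Smooth muscle and pericyte markers were higher in 12 of 15 (median 0.14), but the members past 1.5-fold, Rgs5 at 0.95 and Smtn at 0.90, turned to -0.99 and -1.05 in the second reading.

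Macrophage markers were higher in 13 of 18 (median 0.14, 0.19 with the local background subtracted), with 0 past 1.5-fold and summed signals of 1769 and 1780 units. C1qa, a chain of the complement recognition molecule C1q, was at 8.46 and 8.82, a difference of 0.36 (1.13). Ctss, a protease of antigen-presenting cells, differed by 0.46 (0.95) and Tyrobp, a myeloid adaptor, by -0.49 (0.09). The 3 compared MHC class II genes were lower, with H2-Aa at 8.55 and 8.07, a difference of -0.48, but their median of -0.30 was 0.22 with the local background subtracted. Complement genes were higher in 16 of 23 (median 0.13). Clu, clusterin, a regulator of the terminal pathway, was at 12.10 and 12.94, a difference of 0.84 (4.06), Serping1, the C1 inhibitor, at 0.59 (0.44), and C3, the central component, at 7.73 and 8.41, a difference of 0.68 that turned to -0.09 in the second reading.

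Among the other pathway lists, proteasome subunits were higher in 25 of 34 (median 0.11, -0.04 with median scaling), immediate early genes in 16 of 21 (median 0.15), lipid and cholesterol synthesis genes in 20 of 27 (median 0.04), basement membrane genes in 10 of 14 (median 0.06) and angiogenesis genes in 17 of 26 (median 0.06). Autophagy and lysosome genes were higher in 16 of 31 (median 0.00), inflammation genes in 12 of 25 (median -0.02) and p53 and apoptosis genes in 7 of 21 (median -0.07). Ier5, an immediate early gene, was at 7.05 and 7.82, a difference of 0.76 (1.299 with the local background subtracted), and Ccng1, a p53 target, at 12.04 and 11.44, a difference of -0.61 (-1.09). Ctsh, a lysosomal protease, was at -0.76 and at 0.01 in the second reading.

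Of 10 lung epithelial markers on the array 3 were compared, and the 10 had summed signals of 45.5 and 45.7 units. Of 15 liver markers 9 were compared, and the 15 had summed signals of 607 and 651 units. Skeletal muscle markers include Acta1, Myl1 and Ckm, the muscle creatine kinase that the heart also makes. They were higher in 8 of 12 compared members (median 0.09, -0.05 with the local background subtracted). Their summed signals were 12875 and 8643 units, of which Ckm alone held 10042 and 5373. Ckm was at 13.07 and 12.47, a difference of -0.60 (-1.88 with the local background subtracted), and 0.01 (-1.07) in the AL pair.

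Genes detected in 1 CR heart alone were dim. Of the 16387 genes on the arrays, 1146 were detected in the control heart alone and 649 in the knockout heart alone. Another 11958 were compared and 2531 were detected in neither. Genes with clone names were left out of the counts for 1 heart alone. Of all probes, 77.8% were detected in the control and 74.0% in the knockout CR heart, on the dimmer slide. The brightest gave only small bounds: Hamp, the iron hormone hepcidin, was at least 1.36-fold lower in the knockout heart (log2 signals of 6.36 and 5.82, not well above background in the latter), and Pou4f3, a transcription factor of hair cells, at least 1.34-fold higher (5.88 and 6.31). These bounds set the brighter heart against the lowest signal of detected probes in the other heart, or the probe's own signal there where that was higher.

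The precision of single probes was limited. In 136 genes with several compared probes, 282 in all, the SD between probes of a gene was 0.223, against 0.234 over all genes, and the median range between probes of a gene was 0.139. With the local background subtracted these values were 0.723, 0.673 and 0.395. Block medians, over the 24 blocks of the array, ran from -0.09 to 0.11.

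**Figure D5:**
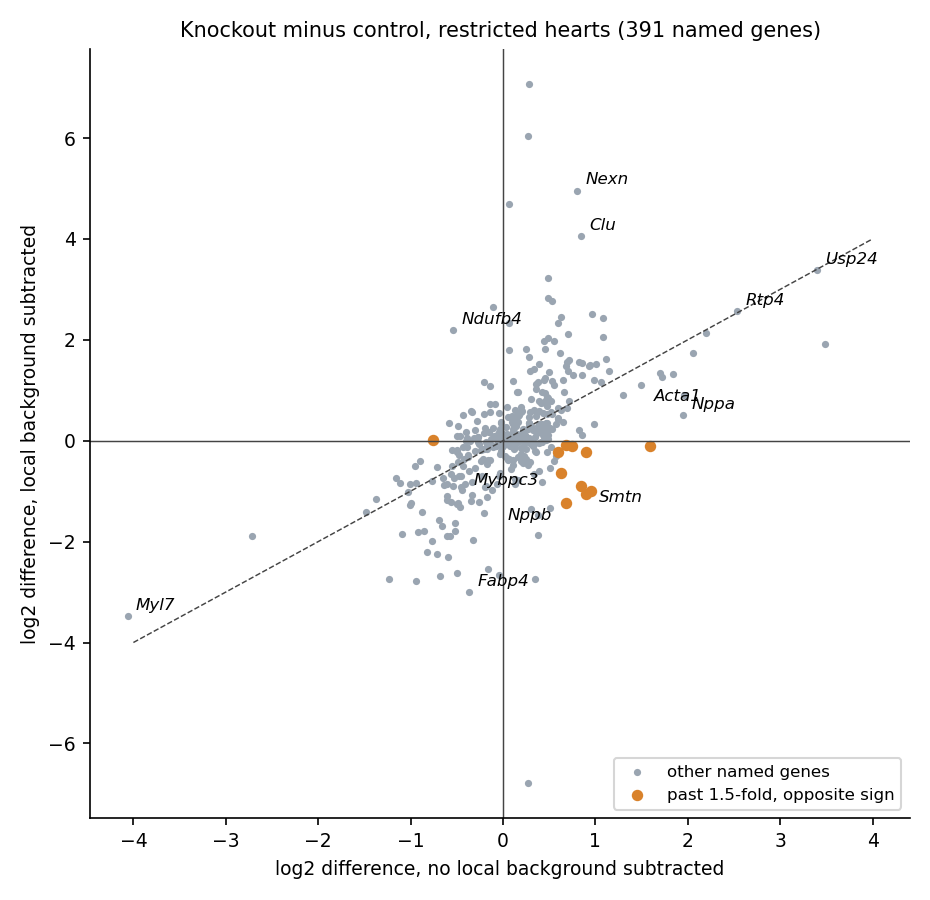
Each point is 1 of 391 named genes, with the knockout minus control log2 difference in the CR hearts on the x axis and the same with the local background subtracted on the y axis; the dashed line marks equal values. Usp24, Rtp4 and Myl7 lie near the line, Nexn and Clu far above it, and the 11 orange genes, past 1.5-fold on the x axis, changed sign.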

How the data were processed

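Total RNA of 4 hearts was hybridised to 2 slides, with the AL heart in Cy5 and the CR heart in Cy3 on each, per the labels. The deposited intensity values are the median brightness of each spot and of its surroundings, with scans at several gains joined by line fits, per the file headers. The authors' deposited log2 ratios of CR over AL were used only to check which column holds which heart: rebuilt from the scanner values and shifted by a constant, 17402 of 17403 and 16553 of 16554 ratios matched the table to within 0.01 (r of 1.0). The scanner software is not given in the sources used here.

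Spot intensities were corrected with normexp (offset 50) without the local background, then by loess within each array (control spots and 3 marked spots at weight 0) and Aquantile between arrays on separate channels, with limma 3.58.1 in R 4.3.3. The pipeline was tested on simulated arrays. A probe was detected above the blank mean plus 2 SD, after 5% of blank spots were left out at each end. The brightest probe stood for a gene. Of 23470 probes, 16628 carried 1 symbol and 6842 none. Symbols came from the platform annotation, and 3945 were updated and 62 did not match.

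Members and the 56 gene lists (34 pathway, 22 cell-type) were chosen with earlier results of these data known. Named genes were Sirt1, the 15 highest and 15 lowest at or above the median signal, the 12 most stable each way over 5 settings, up to 5 members a list by size, up to 5 bounds each way, and all compared filament, glycolysis, fatty acid, matrix, clock and sirtuin genes. Sln, Gja5 and Mthfd2 were named after their values were seen. Every difference is knockout minus control with 1 heart a side, so no p-value or SD between mice is given. Of 13 alternatives, subtraction of block medians was chosen after seeing the data.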

Additional observations from a re-analysis of the deposited data

Results flagged for a closer look

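Dbp and Rrad lay on opposite sides of 0 in the CR and AL pairs, each past 1.5-fold. Dbp, a clock output factor, was lower in the knockout heart under CR, at -0.709, and higher under AL, at 0.85. With the local background subtracted it was at -0.53 and 1.41, so the signs were opposite in both readings. Rrad, an inhibitor of the L-type calcium channel, was lower under CR, at -0.597, and higher under AL, at 1.53. With the local background subtracted Rrad was lower in both pairs, at -2.30 and -1.90, so its opposite signs held in 1 reading. The surroundings of its CR spot were 101.7% of the spot on the knockout slide and 76.2% on the control slide. With 1 heart a condition, the difference between the pairs was not tested.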

How the results depend on the processing

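With 1 heart a group no replicate could be left out. No paired analysis was possible because each genotype has 1 slide. Counts are of genes at least 2-fold higher, 2-fold lower, 1.5-fold higher and 1.5-fold lower, which were 24, 12, 172 and 129. Subtraction of the local background gave 650, 558, 1332 and 1241, no offset gave 107, 63, 708 and 592, and the blank mean subtracted gave 353, 202, 1188 and 964. They were 16, 21, 102 and 280 with median scaling after loess and 15, 23, 91 and 308 with median scaling of the Cy3 channels alone. The share above 0 was 51.0%, and it was 47.3% and 45.3% with these scalings, 48.0% with median centring, 49.8% with no detection filter and 49.9% at or above the median signal.

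Of 93 named genes past 1.5-fold, 82 kept their sign with the local background subtracted. The 11 others became -0.089 (C3), 0.006 (Ctsh), -0.11 (Glul), -0.23 (Igfbp3), -0.10 (Jun), -0.63 (Mybpc3), -0.90 (Ndufs1), -1.24 (Nppb), -0.22 (Pkm), -0.99 (Rgs5) and -1.05 (Smtn), and the cause was not tested. All 93 kept their sign under the other changes of offset, blank subtraction, scaling, loess, centring and block medians (changes of the detection limit or the signal filter leave a gene's value as it is). Of the 93, 18 fell below 1.5-fold in size with median scaling after loess, 21 with median scaling of the Cy3 channels alone and 16 with the local background subtracted, whatever their sign. Of 53 lists with 5 or more compared members, the median changed sign in 20 with the local background subtracted and in 6 with median scaling after loess. Signal over background limits all of these values: the median compared gene had 60.0 units above the blank in the control CR heart and 51.8 in the knockout CR heart.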
